A study of Mus musculus with 6 samples.

Results

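Imprinted genes are genes that a cell reads mainly from 1 parental chromosome, and 38 of them were followed here in tibia RNA. They were taken by symbol from a fixed list of mouse imprinted genes that has been linked to ATRX in other tissues, and all 38 were found among the 55401 gene identifiers of the count tables, 55141 of which have a name in GENCODE M21. Whole tibias gave 3 libraries of Atrx-cKO mice, with *Osterix-Cre* and a floxed *Atrx* allele on their single X chromosome (labelled Osterix-Cre; Atrxf/y), and 3 libraries of control mice that carried the floxed allele alone (Atrxf/y). All mice were 8 weeks of age, and doxycycline was given until week 3 to hold the Tet-off Cre silent. Cre was driven by the *Sp7* (*Osterix*) promoter, which is active in osteoblast precursors. The paper also found Cre-positive cells in the prehypertrophic and hypertrophic zones of the growth plate. Cells that neither expressed Cre nor descended from cells that did kept *Atrx*, and their share of the tibia was not measured. No library of mice with Cre and intact *Atrx* was analysed here, so the transgene and the loss of *Atrx* cannot be told apart. The labels do not say whether each library is a separate mouse, and the study describes 3 samples per group without mention of pooling.

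Most imprinted genes sit in clusters. Each cluster is governed by an imprinting control region whose DNA is methylated on only 1 parental copy, and the mark survives the reprogramming of the early embryo because the zinc finger protein ZFP57 binds the motif TGCCGC on the methylated copy and recruits TRIM28 and its partners. The clusters hold protein-coding genes of growth and metabolism beside long noncoding RNAs that come from the opposite copy and often silence their neighbors. ATRX, a chromatin remodeler that deposits histone H3.3 with DAXX, has been placed at imprinted genes in brain together with cohesin. Many imprinted genes are high in the fetus and are switched down after birth, and several act in bone, muscle or fat progenitors. The counts add up the parental copies, so none of the values below shows which copy a transcript came from.

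The sequences that stand before the 4 imprinted genes with the lowest unadjusted p are shown here. The imprinting control regions, where ZFP57 acts, need not lie within these windows and were not searched, so the windows do not show whether ZFP57 binds a cluster. Each is the 250 bases upstream of a RefSeq transcription start on GRCm38.p6, in the direction of transcription. Where a gene has several starts, the window with the most copies of the motif is shown, and capitals mark TGCCGC read on either strand (GCGGCA is the same motif on the other strand). The window of *Meg3* is chr12:109540746-109540995 on the + strand, that of *Kcnq1ot1* is chr7:143296548-143296797 on the - strand, that of *Nnat* is chr2:157559828-157560077 on the + strand and that of *Mest* is chr6:30737800-30738049 on the + strand.
Meg3: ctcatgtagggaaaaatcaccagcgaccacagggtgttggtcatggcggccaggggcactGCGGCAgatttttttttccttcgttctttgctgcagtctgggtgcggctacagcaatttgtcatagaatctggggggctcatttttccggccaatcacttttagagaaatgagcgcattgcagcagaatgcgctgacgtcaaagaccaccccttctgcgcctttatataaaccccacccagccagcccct
Kcnq1ot1: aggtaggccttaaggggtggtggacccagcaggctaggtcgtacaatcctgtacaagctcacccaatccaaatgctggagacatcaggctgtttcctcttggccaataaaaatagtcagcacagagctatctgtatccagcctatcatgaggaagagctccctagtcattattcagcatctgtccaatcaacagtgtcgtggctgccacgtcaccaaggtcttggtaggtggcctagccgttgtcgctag
Nnat: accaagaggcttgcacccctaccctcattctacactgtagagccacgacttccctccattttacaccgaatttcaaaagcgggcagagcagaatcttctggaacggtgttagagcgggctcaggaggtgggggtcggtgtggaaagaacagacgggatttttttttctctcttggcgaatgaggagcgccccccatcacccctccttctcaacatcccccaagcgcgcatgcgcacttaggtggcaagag
Mest: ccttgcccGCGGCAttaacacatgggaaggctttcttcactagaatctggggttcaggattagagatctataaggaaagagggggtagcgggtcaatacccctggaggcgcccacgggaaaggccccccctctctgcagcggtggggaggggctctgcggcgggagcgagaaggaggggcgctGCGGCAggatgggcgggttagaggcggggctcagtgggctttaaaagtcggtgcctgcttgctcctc

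The motif occurred 1 time in the *Meg3* window and 2 times in the *Mest* window, and it was found in neither of the other two. *Meg3* has another RefSeq window with 0 copies and 0 CpG, and *Mest* has another with 0 copies and 7 CpG beside a near-identical one with 2 copies. CpG dinucleotides, the sites that carry the methyl mark, numbered 14 in the *Mest* window, 12 in that of *Nnat*, 10 in that of *Meg3* and 5 in that of *Kcnq1ot1*. RefSeq promoter windows were taken for 29 of the 38 genes and gave 47 windows. Chromosome 18, which holds *Impact*, was left out of the windows of imprinted genes but not out of all windows. Of the 47, 7 windows, from 6 genes (*Meg3*, *Zim1*, *Mest*, *Plagl1*, *Zdbf2* and *Nap1l5*), held the motif. That was 14.9% of the windows of imprinted genes, beside 8.68% of all 32851 windows of the same length, and 0.874% of all windows held 2 or more copies. The median number of CpG was 8 in windows of imprinted genes and 6 in all windows. Several windows of 1 gene overlap, and a match is a run of letters in the reference and not a measured binding site.

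Levels spanned a wide range. They are given as TPM, in which each count is divided by the gene's exonic length in the annotation and scaled to the library, as means over the 6 libraries ± SD (n = 6). *Gnas*, which encodes the stimulatory G protein subunit that carries parathyroid hormone signals in bone, was the highest at 249.5 ± 13.3 TPM, above 97.95% of all genes tested. *Igf2r*, the receptor that clears IGF2, followed at 43.9 ± 2.48 TPM and *Grb10*, an adaptor that restrains insulin and IGF receptors, at 42.8 ± 4.98 TPM, and their ranges overlapped. The next 4 were also within each other's spread: *Cdkn1c*, a cell cycle inhibitor, at 31.7 ± 5.11 TPM, the noncoding RNA *Peg13* at 30.7 ± 2.71, the zinc finger regulator *Plagl1* at 30.5 ± 2.34 and the translational regulator *Impact* at 30.3 ± 1.42. In all, 14 of the 38 genes reached 10 TPM and 26 reached 1 TPM.

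At the low end were transcripts of fetal or neural tissue. *Igf2*, the fetal growth factor, was at 0.681 ± 0.264 TPM, while its neighbor *H19* stood at 21.05 ± 13.9 TPM. In the annotation 3596 exonic bases of *Igf2*, 62.8% of its own, are shared on the same strand with *Gm49394*, so reads there may have been left uncounted as ambiguous, and the level of *Igf2* and its ratio to *H19* carry that limit. *Dlk1*, a Notch-like inhibitor of fat cell differentiation, was at 0.138 ± 0.0519 TPM, *Mirg* at 0.120 ± 0.0365 TPM and *Zdbf2* at 0.0447 ± 0.0281 TPM. The plot of levels shows that the spread between libraries widened as the level fell, with *Slc38a4* and *H19* as exceptions that were well detected and still variable.

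**Figure D1:**
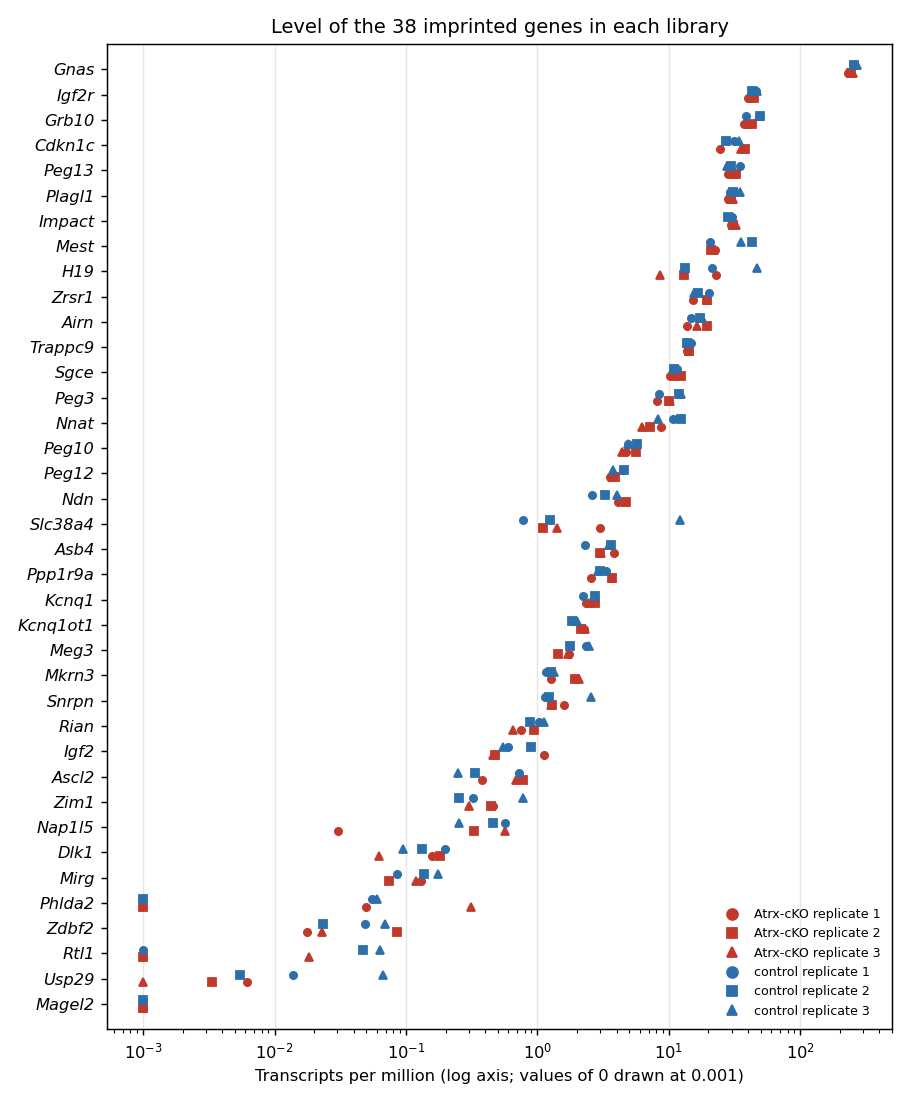
TPM (x axis, log scale) of the 38 imprinted genes in each library, ordered by mean, with Atrx-cKO in red, control in blue and the replicates as circle, square and triangle, and with values of 0 drawn at 0.001. *Gnas* stands alone near 250 TPM, *Magel2* is at 0 in every library, and control replicate 3 lies far to the right for *Slc38a4*.

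Of the 38 genes, 34 were abundant enough for the test and 4 were not. *Magel2*, a ubiquitin ligase regulator of the Prader-Willi region, had 0 counts in every library. An allowance of 3 counts per library, which covers counting error only, limits a gene with 0 counts to between 0.0425 and 0.0588 CPM, the unit of counts relative to library size that is used from here on, with library sizes adjusted by the TMM method in all later values. *Phlda2*, a restrainer of placental growth, showed 1, 0 and 6 counts in the Atrx-cKO libraries, in replicate order, and 1, 0 and 1 in the controls. *Rtl1*, a retrotransposon-derived placental gene, had 0, 0 and 2 counts against 0, 6 and 6. *Usp29*, a deubiquitinase gene next to *Peg3*, had 2, 1 and 0 counts against 4, 2 and 18, so that 1 control library held most of its reads.

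Depth and tissue makeup bear on all that follows. Reads on genes numbered 55178546 to 58029939 per Atrx-cKO library and 50977777 to 70571655 per control library. All 14 listed osteoblast and osteocyte markers passed the expression filter. So did all 14 skeletal muscle markers and all 8 adipocyte markers, so passing the filter does not identify the tissue. Control replicate 3 stood apart in skeletal muscle genes, whose summed level was 14580 CPM there, against 1045 and 1142 CPM in the other two controls and 3016, 1560 and 863.6 CPM in Atrx-cKO. *Atrx* itself was at 163 ± 9.54 CPM in Atrx-cKO and 169 ± 4.98 CPM in control (SD, n = 3), a log2 fold change of -0.047 (edgeR adjusted p = 0.992). Its count per gene thus does not separate the genotypes in whole tibia. A transcript without the floxed exon is still counted on the other exons. By RT-PCR, the paper found less *Atrx* in Atrx-cKO tibias, with a faint shorter band from recombination of that exon. In bulk RNA, fewer cells of a type and less RNA per cell cannot be told apart.

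No imprinted gene passed the test between Atrx-cKO and control tibias after correction over all genes. edgeR's quasi-likelihood test, with counts scaled by the TMM method, called 3 of the 20636 genes tested at an adjusted p under 0.05 (0.0145%) and 0 of the 34 imprinted genes. DESeq2 called 37 of 23938 genes (0.155%), again with 0 imprinted genes among them. At an unadjusted edgeR p under 0.05, 3 of the 34 were lower in Atrx-cKO (*Meg3*, *Nnat* and *Mest*), beside 2.05% of all genes tested, and 1 was higher (*Kcnq1ot1*), beside 1.59% of all genes tested. These 4 values come from a list in which some genes are neighbors on 1 chromosome, and with control replicate 3 left out the counts were 1 lower (*Nnat*, beside 1.4% of all genes) and 2 higher (*Kcnq1ot1* and *Ndn*, beside 1.35%).

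The differences were small for most of the 34 genes. Log2 fold changes ran from -1.41 (*Slc38a4*) to 0.48 (*Ascl2*), with a median of -0.106 beside a median of 0.00495 over all genes tested. The size was under 0.5 for 30 genes and at or over 1 for 1 gene. The 95% interval lay within 1 log2 unit of no change for 22 genes and within 0.5 for 14, so a log2 difference of 1 lies outside the interval for those 22 genes and cannot be set aside for the other 12. Of the 34, 25 were below 0 and 9 above, beside 48.8% of all genes tested below 0. Scaling by total counts made the split 19 and 15 while the share of all genes below 0 went to 32.1%. The median of the 34 lay 0.111 under that of all genes with either scaling. That equality is no separate check, because a change of scaling shifts all genes nearly alike. Without control replicate 3 the split was 20 and 14, with 50.5% of all genes below 0. Of the genes read from the maternal copy, 9 of 13 were below 0, with a median of -0.12. Of those read from the paternal copy, 15 of 20 were below 0, with a median of -0.086.

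**Figure D2:**
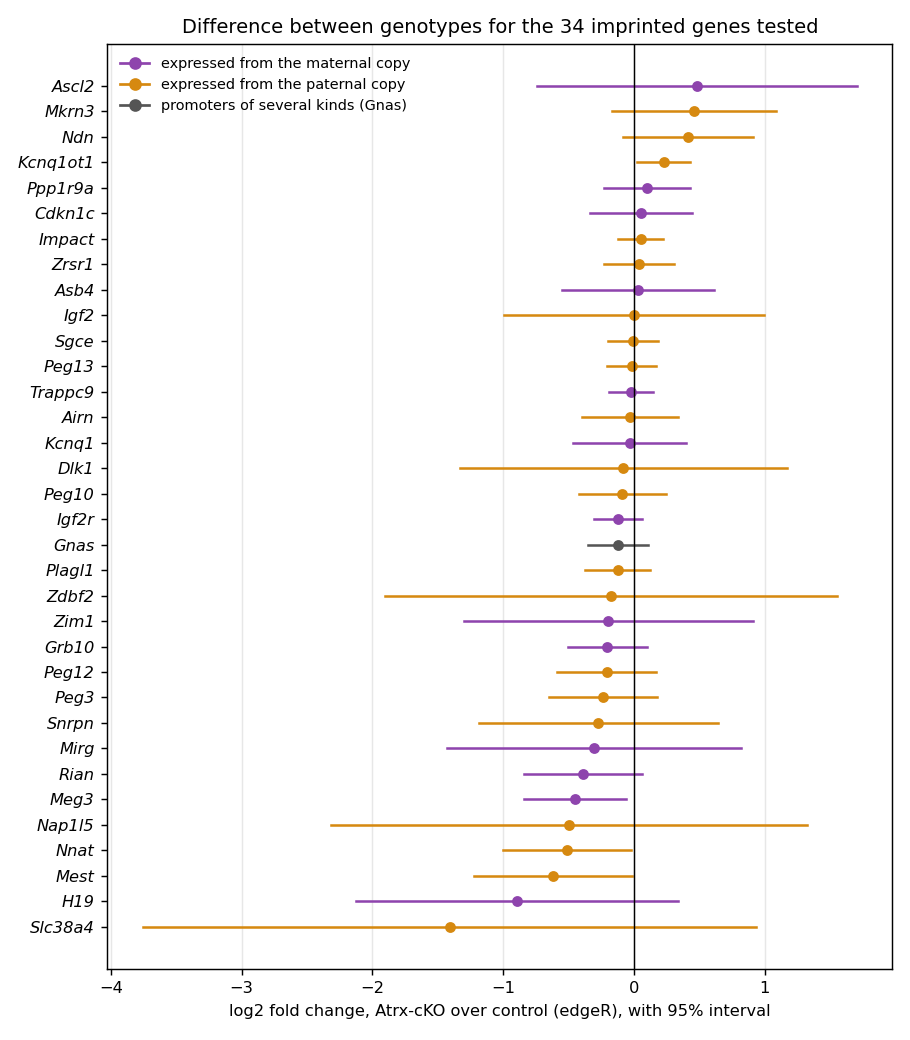
Log2 fold change of Atrx-cKO over control (x axis) with its 95% interval from edgeR for the 34 imprinted genes tested, colored by the parental copy each is known to be read from. Most points lie within 0.5 of 0, and the intervals that miss 0 are those of *Meg3*, *Nnat*, *Mest* and *Kcnq1ot1*, none with an adjusted p under 0.05.

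The 3 maternally expressed RNAs measured in the *Dlk1*-*Meg3* cluster all had log2 fold changes below 0. *Meg3* (ENSMUSG00000021268, chromosome 12 from 109541001 to 109571726 on GRCm38), a long noncoding RNA with growth-restraining roles, had 9.68, 7.51 and 8.96 CPM in Atrx-cKO replicates 1, 2 and 3 and 11.97, 9.76 and 14.01 CPM in the controls. Every Atrx-cKO value was under every control value, but the highest Atrx-cKO library and the lowest control differed by less than the spread within either group. The log2 fold change was -0.45 (95% interval -0.84 to -0.058, edgeR unadjusted p = 0.030, adjusted p = 0.992), and the unadjusted p ranged from 0.00908 to 0.09 when single libraries were left out. With libraries scaled by total counts the groups overlapped and the log2 fold change was -0.38.

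*Rian*, the host RNA of a series of small nucleolar RNAs and the next transcript downstream, had 4.17, 4.96 and 3.48 CPM in Atrx-cKO and 5.31, 4.80 and 6.45 CPM in control. The groups overlapped through Atrx-cKO replicate 2, and the log2 fold change was -0.39 (edgeR unadjusted p = 0.079). *Mirg*, the microRNA host RNA farther along, was at 0.234 ± 0.0688 CPM in Atrx-cKO and 0.292 ± 0.112 in control (SD, n = 3), with a log2 fold change of -0.30 and an interval of -1.43 to 0.82. *Dlk1*, read from the paternal copy, was at 0.224 ± 0.107 and 0.236 ± 0.0743 CPM, a log2 fold change of -0.082 with an interval from -1.33 to 1.17. *Meg3*, *Rian* and *Mirg* are read from the same strand of 1 region and are often parts of 1 long transcription unit, so they do not count as 3 independent genes.

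*Kcnq1ot1* (ENSMUSG00000101609, chromosome 7 from 143203458 to 143296549) was the 1 imprinted gene with higher TMM-scaled values in all Atrx-cKO libraries than in any control. This paternally expressed antisense RNA silences the *Kcnq1* cluster on the copy it is read from. It had 64.00, 58.22 and 62.61 CPM in Atrx-cKO and 48.82, 51.18 and 57.83 CPM in control. The lowest Atrx-cKO library exceeded the highest control by less than 1 CPM, and the log2 fold change was 0.23 (95% interval 0.025 to 0.43, edgeR unadjusted p = 0.032, adjusted p = 0.992). The unadjusted p ran from 0.0128 to 0.0824 when single libraries were left out, and with libraries scaled by total counts the log2 fold change was 0.30 (edgeR unadjusted p = 0.00742, adjusted p = 0.905).

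The other listed genes tested in the *Kcnq1* cluster had log2 fold changes near 0 or wide intervals. Whether *Kcnq1ot1* silences each of them in the tibia at this age was not measured. *Cdkn1c* (ENSMUSG00000037664) had 15.27, 22.31 and 21 CPM in Atrx-cKO and 18.02, 16.66 and 21.83 in control, with a log2 fold change of 0.053 (interval -0.34 to 0.44). *Kcnq1*, a potassium channel subunit, was at 3.05 ± 0.184 CPM in Atrx-cKO and 3.12 ± 0.483 in control (SD, n = 3), a log2 fold change of -0.033. *Ascl2*, a stem cell and trophoblast regulator, was at 0.293 ± 0.0934 and 0.208 ± 0.110 CPM, with a log2 fold change of 0.48 whose interval ran from -0.74 to 1.70. The single annotated exon of *Kcnq1ot1* spans introns of *Kcnq1* on the opposite strand, and how the counting used strand is not given in the sources used here, so reads from *Kcnq1* introns may be among its own. An unnamed antisense gene over *Cdkn1c*, *Gm44732*, had 0.392 to 0.483 of the count of *Cdkn1c* in each library, although 98.4% of its exonic bases face *Cdkn1c*.

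*Nnat* (ENSMUSG00000067786, chromosome 2 from 157560078 to 157562522), which encodes a small membrane protein of the endoplasmic reticulum, had 4.87, 3.80 and 3.34 CPM in Atrx-cKO and 5.54, 6.86 and 4.73 CPM in control. Only Atrx-cKO replicate 1 reached into the control range, just above control replicate 3. The log2 fold change was -0.51 (95% interval -1.0 to -0.022, edgeR unadjusted p = 0.043, adjusted p = 0.992), and the unadjusted p ranged from 0.0181 to 0.155 when single libraries were left out. *Blcap*, a gene that lies over *Nnat*, was at 29.05 ± 0.207 CPM in Atrx-cKO and 32.4 ± 1.28 in control (SD, n = 3), with a log2 fold change of -0.16 (edgeR unadjusted p = 0.073).

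*Mest* (ENSMUSG00000051855, chromosome 6 from 30723547 to 30748465), a mesoderm and fat cell gene of the hydrolase family, had 27.16, 23.77 and 25.52 CPM in Atrx-cKO and 22.88, 50.80 and 43.67 CPM in control. The 3 Atrx-cKO libraries lay close together, while the controls fell into 1 low and 2 high values, with the low control under all Atrx-cKO libraries. The log2 fold change was -0.62 (95% interval -1.22 to -0.014, edgeR unadjusted p = 0.046, adjusted p = 0.992). Without control replicate 1 it was -0.89 (edgeR unadjusted p = 8.16e-05, adjusted p = 0.0967), and with other single libraries left out the unadjusted p reached 0.16. *Mest* shares 912 exonic bases, 23.1% of its own, with *Copg2* on the opposite strand, and *Copg2* had a log2 fold change of -0.126.

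**Figure D3:**
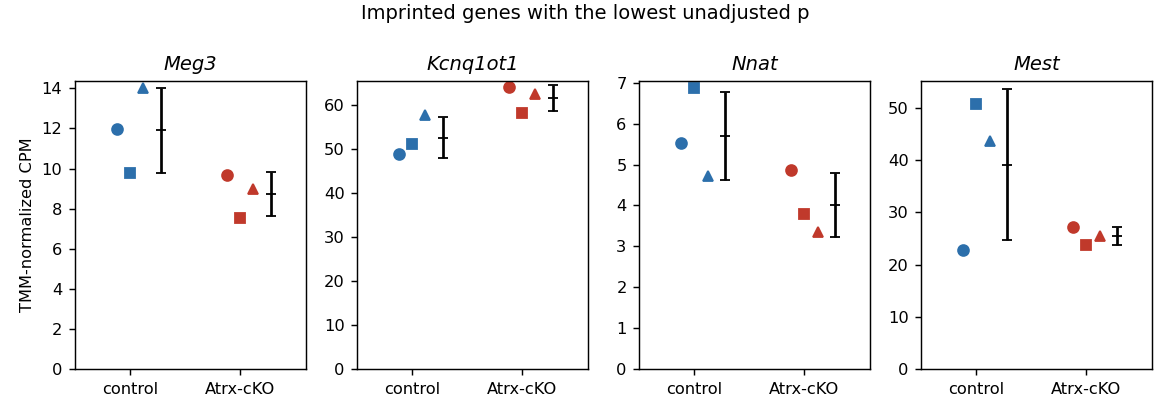
TMM-normalized CPM (y axis) of the 4 imprinted genes with the lowest unadjusted p in control (blue) and Atrx-cKO (red) libraries, with circle, square and triangle for replicates 1, 2 and 3 and the mean ± SD beside each group. The groups are apart for *Meg3* and *Kcnq1ot1* and overlap for *Nnat* and *Mest*, where control replicate 1 of *Mest* at 22.88 CPM sits under all Atrx-cKO values.

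The same pair of controls was high for other imprinted genes. *Peg3*, a zinc finger gene of muscle and mesenchymal progenitors, had 32.82, 38.67 and 39.62 CPM in Atrx-cKO and 31.81, 47.75 and 51.57 in control (log2 fold change -0.24, edgeR unadjusted p = 0.218). *Grb10* had 103.8, 113.4 and 106.6 CPM in Atrx-cKO and 99.84, 135.5 and 137.2 in control, and *Plagl1* had 67.15, 66.76 and 69.81 CPM against 64.00, 73.08 and 85.01. In each case control replicate 1 lay under every Atrx-cKO library and controls 2 and 3 above every one, and the log2 fold changes of *Grb10* and *Plagl1* were -0.20 and -0.12. Controls 2 and 3 held the highest pair of values for 7 of the 34 genes (*Mest*, *Peg3*, *Grb10*, *Plagl1*, *Gnas*, *Mirg* and *Kcnq1*), or 20.6%, beside 12.1% of all genes tested, and the 3 genes described here were chosen from those after their values were seen.

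Marker genes of several cell types moved with these values. The summed level of 10 tendon, periosteum and fibroblast markers was 2186, 2157 and 1822 CPM in Atrx-cKO and 2134, 3290 and 4031 CPM in control, high in the same controls. Of those 10 genes, 9 were below 0, beside 48.8% of all genes tested, with a median log2 fold change of -0.45. At an unadjusted edgeR p under 0.05, 4 of the 10 were lower, beside 2.05% of all genes tested, with *Dpt*, *Postn* and *Col3a1* lowest in p. Osteoblast and osteocyte markers summed to 118700, 119000 and 122900 CPM in Atrx-cKO and 112600, 189600 and 171100 in control. Of these 14 genes, 13 were below 0, beside the same 48.8%, with a median of -0.23. Chondrocyte markers summed to 4274, 7087 and 6635 CPM in controls 1, 2 and 3, erythroid markers to 6542, 2615 and 3224 CPM and endothelial markers to 970, 729 and 740.8 CPM. By sums, these lists also set control replicate 1 apart from the other controls. Not all lists did so: adipocyte markers summed to 466.1, 381.1 and 511 CPM and neutrophil markers to 11540, 9693 and 8055 CPM. Sums follow the most abundant genes, and the mean log2 CPM of the chondrocyte markers was 2.614, 3.071 and 3.976 in controls 1, 2 and 3. None of the markers named here was called, and their part in the values of *Mest*, *Peg3*, *Grb10* and *Plagl1* was not tested.

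The *Igf2*-*H19* and *Igf2r*-*Airn* clusters set the supply and clearance of IGF2. *H19* (ENSMUSG00000000031, chromosome 7 from 142575529 to 142578143), a noncoding RNA of fetal and muscle tissue, had 17.29, 9.35 and 6.08 CPM in Atrx-cKO and 14.72, 9.92 and 36.34 in control. Its log2 fold change of -0.90 (interval -2.13 to 0.34, edgeR unadjusted p = 0.131) became -0.19 without control replicate 3, and the unadjusted p ranged from 0.0401 to 0.651 with single libraries left out. *Igf2* was at 1.17 ± 0.678 CPM in Atrx-cKO and 1.17 ± 0.330 in control (SD, n = 3), with a log2 fold change of -0.0023 whose interval of -1.0 to 0.99 leaves room for a difference in either direction.

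*Igf2r* (ENSMUSG00000023830, chromosome 17 from 12682406 to 12769664) had 114.5, 119.8 and 114.6 CPM in Atrx-cKO and 121.5, 121.5 and 136.6 CPM in control. All Atrx-cKO values were under all control values, by less than 2 CPM at the closest, and the log2 fold change was -0.12 (interval -0.31 to 0.063, edgeR unadjusted p = 0.166). With libraries scaled by total counts the groups overlapped. *Airn*, the paternal antisense RNA whose transcription silences *Igf2r*, was at 17.6 ± 2.74 CPM in Atrx-cKO and 17.95 ± 2.74 in control (SD, n = 3), a log2 fold change of -0.031 with an interval of -0.40 to 0.33. The gene spans of *Airn* and *Igf2r* overlap on opposite strands, so by the limit given for *Kcnq1ot1* reads from *Igf2r* introns may be among those of *Airn*.

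*Igf2r* and *Peg12* joined *Meg3* and *Kcnq1ot1* as the genes whose groups did not overlap. That made 3 of 34 genes apart and lower, beside 4.01% of all genes tested, and 1 apart and higher, beside 4.3%. *Peg12*, an inhibitor of GSK3 in the Prader-Willi region, had 2.89, 2.99 and 2.83 CPM in Atrx-cKO and 3.35, 3.63 and 3.09 in control, a log2 fold change of -0.21 (edgeR unadjusted p = 0.239). Scaling by total counts left 0 genes apart and lower and 3 apart and higher (*Kcnq1ot1*, *Impact* and *Ndn*), and over all genes tested it left 2.26% apart and lower and 7.1% apart and higher.

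The paternally expressed genes of the Prader-Willi region went in both directions. *Ndn*, which encodes the growth suppressor necdin of neurons and mesenchymal progenitors, had 4.63, 5.08 and 4.99 CPM in Atrx-cKO and 2.73, 3.66 and 4.66 in control. The groups overlapped by a margin under 0.1 CPM, and the log2 fold change was 0.41 (interval -0.085 to 0.91, edgeR unadjusted p = 0.092), or 0.60 without control replicate 3 (edgeR unadjusted p = 0.019). *Mkrn3*, a ubiquitin ligase that restrains puberty, was at 1.32 ± 0.293 CPM in Atrx-cKO and 0.963 ± 0.115 in control (SD, n = 3), a log2 fold change of 0.46. *Snrpn*, a splicing protein gene, was at 0.882 ± 0.139 and 1.07 ± 0.564 CPM, with a log2 fold change of -0.27 that turned to 0.22 without control replicate 3. *Snrpn* shares 27.3% of its exonic bases with *Gm38393* and 10% with *Snurf* on the same strand, so its counts carry the same limit as those of *Igf2*.

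*Zim1*, the maternally expressed zinc finger neighbor of *Peg3*, was at 0.958 ± 0.218 CPM in Atrx-cKO and 1.11 ± 0.752 in control (SD, n = 3), with a log2 fold change of -0.20. In the *Peg10*-*Sgce* cluster on chromosome 6 the differences were near 0. *Peg10*, a retrotransposon-derived gene needed by the placenta, had a log2 fold change of -0.090 at 9.70 ± 1.15 CPM in Atrx-cKO and 10.3 ± 1.22 in control (SD, n = 3). *Sgce*, a sarcoglycan of muscle and brain, was at 35.2 ± 2.48 and 35.3 ± 0.577 CPM, and its interval of -0.20 to 0.19 is among the narrow ones. The maternal genes *Asb4*, a ubiquitin ligase adaptor, and *Ppp1r9a*, a phosphatase scaffold, had log2 fold changes of 0.032 and 0.10.

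Several imprinted genes that are abundant in the tibia had narrow intervals around their difference in whole tibia. Those intervals bound the bulk value alone, and a difference confined to the cells that lost *Atrx* was not measured. *Gnas* (ENSMUSG00000027523, chromosome 2 from 174284320 to 174346744) had 781.8, 790.8 and 811.8 CPM in Atrx-cKO and 792.9, 863.8 and 941.6 in control, a log2 fold change of -0.12 (interval -0.35 to 0.11). Its imprinted transcripts start at different promoters, and counts per gene pool them with the transcript that most tissues read from both copies. *Gm20721*, which lies with 99% of its 1484 exonic bases opposite *Gnas*, had 0.909 to 0.944 of the count of *Gnas* in each library, so reads of the gene and its opposite-strand partner cannot be told apart.

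*Peg13*, a noncoding RNA, and *Trappc9*, the vesicle transport gene around it, lay at the center of the range. *Peg13* had 40.82, 44.62 and 42.80 CPM in Atrx-cKO and 46.47, 42.54 and 40.84 in control (log2 fold change -0.018, interval -0.21 to 0.17). *Trappc9* was at 33.0 ± 0.175 CPM in Atrx-cKO and 33.5 ± 0.853 in control (SD, n = 3), with the smallest coefficient of variation within Atrx-cKO of the 34 genes (0.532%) and a log2 fold change of -0.020. *Impact* was at 46.9 ± 1.35 and 45.3 ± 2.56 CPM (log2 fold change 0.051, interval -0.12 to 0.23) and *Zrsr1*, a splicing factor retrogene inside *Commd1*, at 23.9 ± 2.64 and 23.3 ± 2.10 CPM (log2 fold change 0.037). The retrogene *Nap1l5* and *Zdbf2*, a paternal gene of the brain, had too few reads to be placed, with intervals of -2.31 to 1.32 and -1.90 to 1.55.

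*Slc38a4* (ENSMUSG00000022464, chromosome 15 from 96994820 to 97055956), an amino acid transporter, had the largest fold change and rested on 1 library. It had 3.93, 1.37 and 1.75 CPM in Atrx-cKO and 0.929, 1.61 and 16.3 in control, and its log2 fold change of -1.41 (interval -3.75 to 0.94, edgeR unadjusted p = 0.201) became 0.87 without control replicate 3. The muscle markers had the same order at the top: control replicate 3 was highest and Atrx-cKO replicate 1 second. The same 2 libraries led for *H19*, *Zim1*, *Snrpn* and *Trappc9* as well, making 5 of the 34 genes, but the share of all genes with this order was not computed. Control replicate 3 was highest for 22.4% of all genes tested and Atrx-cKO replicate 1 for 21.8%. *Trappc9* had this order by a narrow margin, with 33.18 CPM in Atrx-cKO replicate 1 and 33.04 CPM in control replicate 1. With the muscle marker level added to the fit as a covariate, the log2 fold change was 0.21 for *Slc38a4*, 0.25 for *Zim1*, 0.042 for *Snrpn* and -0.46 for *H19*. For *H19* the unadjusted edgeR p was 0.037 in that fit (adjusted p = 0.9998).

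Control replicate 3 held the highest value of 14 of the 34 imprinted genes, or 41.2%, beside 22.4% of all genes tested. The lowest value was in control replicate 1 for 12 of the 34, or 35.3%, beside 18.2% of all genes tested. All 14 muscle markers were measured, and none was called. Their median log2 fold change was -1.51, and 13 of them were below 0, beside 48.8% of all genes tested. With the muscle covariate in the fit 0 of the 34 imprinted genes were called, and the log2 fold changes were -0.37 for *Meg3*, 0.27 for *Kcnq1ot1*, -0.52 for *Nnat* and -0.57 for *Mest*. At an unadjusted edgeR p under 0.05 in that fit, *Meg3* and *H19* were lower, beside 1.77% of all genes tested. *Kcnq1ot1* and *Ndn* were higher, beside 1.38%. *Nnat* (edgeR unadjusted p = 0.053) and *Mest* (edgeR unadjusted p = 0.076) were no longer under 0.05.

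**Figure D4:**
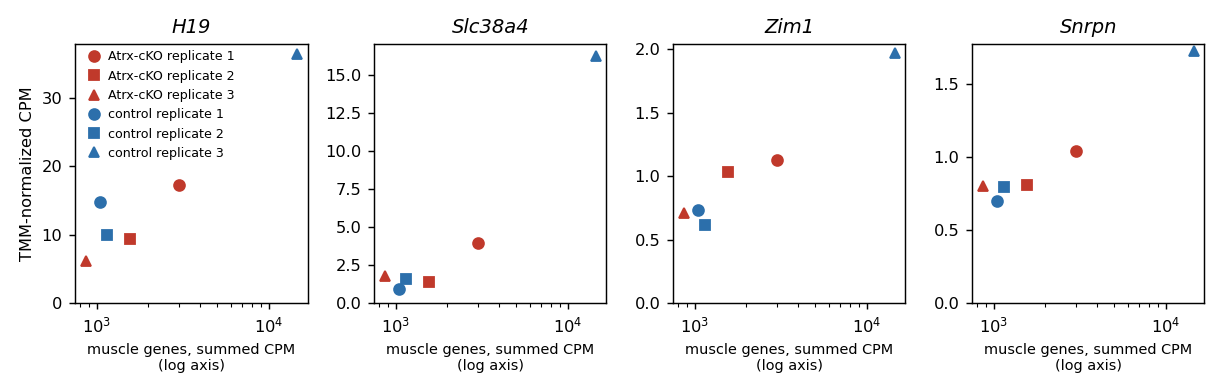
TMM-normalized CPM of 4 imprinted genes (y axis) against the summed CPM of 14 skeletal muscle genes (x axis, log scale) in each library, with Atrx-cKO in red and control in blue. Control replicate 3, at 14580 CPM of muscle genes, is highest in all 4 panels, and Atrx-cKO replicate 1, at 3016 CPM, is second.

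The ratio of 2 genes of 1 cluster that are read from opposite copies was compared for 5 pairs. Ratios are log2 values of CPM + 0.5 in each library, and the smallest p that the exact permutation test allows with 3 libraries in each group is 0.1. The *H19*/*Igf2* ratio was 2.86, 2.94 and 2.38 in Atrx-cKO and 3.38, 2.35 and 4.63 in control, a difference of -0.73 (exact two-sided permutation p = 0.5). The *Meg3*/*Dlk1* ratio was 3.72, 3.33 and 3.98 in Atrx-cKO and 3.94, 3.82 and 4.44 in control, a difference of -0.39 (exact permutation p = 0.3). *Dlk1* lies under the added 0.5 CPM in every library, so this ratio mostly follows *Meg3*, and scaling by total counts moved its difference to -0.34. *Airn*/*Igf2r* differed by 0.089 (exact permutation p = 0.6), *Kcnq1ot1*/*Cdkn1c* by 0.19 (exact permutation p = 0.7) and *Zim1*/*Peg3* by 0.15 (exact permutation p = 0.6). All 5 had an exact permutation p of 0.7 after adjustment over the 5 pairs, and in every pair the groups overlapped.

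**Figure D5:**
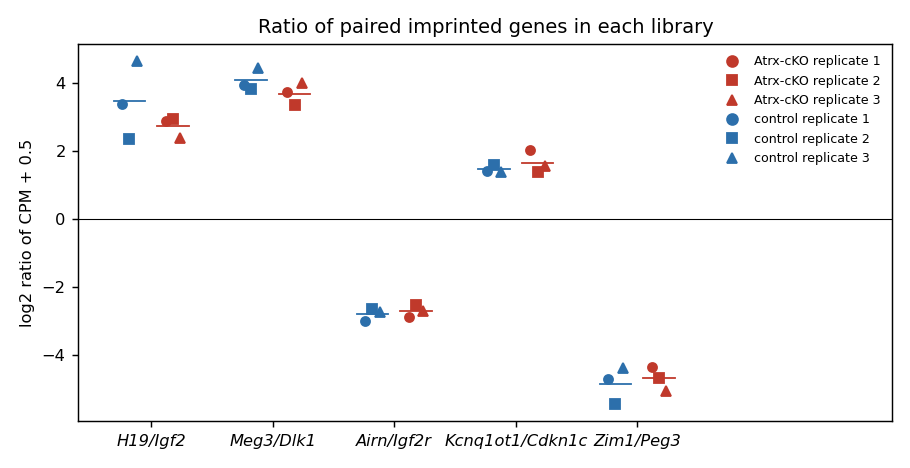
Log2 ratio of CPM + 0.5 (y axis) for 5 pairs of imprinted genes in each library, with control in blue, Atrx-cKO in red and a line at each group mean. The groups overlap in all 5 pairs, and the widest spread is that of *H19*/*Igf2* in control, from 2.35 to 4.63.

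A further list of 44 imprinted genes outside the 38 gave the same count of calls. Of its 37 genes tested, 0 were called by edgeR, beside 0.0145% of all genes tested. At an unadjusted edgeR p under 0.05, 0 were lower and 0 higher, beside 2.05% and 1.59% of all genes. The groups did not overlap for 1 lower and 3 higher genes, beside 4.01% and 4.3% of all genes. By sign, 17 were below 0 and 20 above, beside 48.8% of all genes below 0, with a median log2 fold change of 0.020. The lowest p were those of *Slc22a2*, an organic cation transporter gene (log2 fold change 0.94, edgeR unadjusted p = 0.064), *Gatm*, an enzyme of creatine synthesis (0.35, edgeR unadjusted p = 0.069), and *Blcap*. Of 24 factors that maintain imprints or work with ATRX, such as *Zfp57*, *Trim28*, *Dnmt1*, *Ctcf* and *Daxx*, 23 were tested and 0 were called, with log2 fold changes from -0.115 to 0.142 and a median of 0.056. The lowest p among them was that of *H3f3b*, a gene for histone H3.3, at 429.9 ± 37.9 CPM in Atrx-cKO and 389.7 ± 12.2 in control (SD, n = 3), a log2 fold change of 0.14 (edgeR unadjusted p = 0.183).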

How the data were processed

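Polyadenylated RNA of whole tibias was sequenced as 150-bp paired-end reads from libraries that the labels call strand specific, but whether counting used strand is not given in the sources used here. The authors deposited raw counts per Ensembl gene for each of the 6 libraries. GRCm38 and DESeq2 are named in the submitters' processing notes without a role, and the aligner and counting program are not given in the sources used here. Entries that name no gene (51.6% to 52.4% of each file on no feature) entered neither the library sizes nor the tests.

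Counts were fitted in R 4.3.3 with edgeR 4.0.16 (TMM, filterByExpr, glmQLFit and glmQLFTest, genotype alone), with Benjamini-Hochberg adjustment over 20636 genes and a threshold of 0.05. DESeq2 1.42.0 was the alternative test. TPM used exonic lengths of GENCODE M21. The scripts were tested on simulated counts. Libraries of 1 genotype differed by more than sampling noise (chi-square per degree of freedom 17.4 to 153.8). The labels do not say whether replicates are separate mice, and if they are not, p-values measure only the spread between these libraries, which may be technical. All 38 genes are accounted for by rule, and those with the lowest p, the highest level or groups apart are given library by library. The 4 muscle panels were picked after their values were seen. The genes and lists were chosen with earlier results of these data known.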

Additional observations from a re-analysis of the deposited data

How the results depend on the processing

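The count of imprinted genes called was 0 under every alternative run: RLE, upper quartile or total-count scaling, no filter, at least 10 counts in every library, DESeq2, the replicate block, the muscle covariate and each library left out. The total-count scaling was added after the data were seen. Over all genes the count of 3 was 10 with no filter, 1 with at least 10 counts in every library, 37 with DESeq2 and 0 with the replicate block, and 0 to 5 without single libraries. The number lower at an unadjusted p under 0.05 was 5 with no filter (2.59% of all genes), 1 with total counts (1.38%) and 0 to 4 without single libraries (1.4% to 5.59%). The number higher was 2 with the muscle covariate (1.38% of all genes), 2 with total counts (2.61%) and 0 to 2 without single libraries (1.1% to 4.13%). Of 471 fold changes of single imprinted genes under alternatives, 43 turned in sign, in 16 of the 34 genes.

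With the muscle covariate the log2 fold change turned to 0.014 for *Igf2*, 0.25 for *Zim1*, 0.0030 for *Kcnq1*, 0.042 for *Snrpn*, -0.010 for *Zrsr1*, 0.21 for *Slc38a4* and 0.049 for *Zdbf2*. With total counts, which moved the median of all genes from 0.00495 to 0.0768, it turned to 0.070 for *Igf2*, 0.052 for *Airn*, 0.069 for *Sgce*, 0.049 for *Kcnq1*, 0.051 for *Peg13* and 0.052 for *Trappc9*. Without single libraries it ranged from -0.59 to 0.26 for *Igf2*, -0.16 to 0.069 for *Airn*, -0.35 to 0.26 for *Dlk1*, -0.49 to 0.49 for *Zim1*, -0.19 to 0.0033 for *Peg10*, -0.070 to 0.040 for *Sgce*, -0.18 to 0.15 for *Asb4*, -0.062 to 0.20 for *Cdkn1c*, -0.16 to 0.028 for *Kcnq1*, -0.50 to 0.22 for *Snrpn*, -0.023 to 0.13 for *Zrsr1*, -2.00 to 0.87 for *Slc38a4*, -1.19 to 0.23 for *Zdbf2*, -1.28 to 0.032 for *Nap1l5* and -0.071 to 0.036 for *Peg13*. The ratios ranged from -0.0089 to 0.18 for *Airn*/*Igf2r*, -0.0042 to 0.33 for *Kcnq1ot1*/*Cdkn1c* and -0.14 to 0.38 for *Zim1*/*Peg3*. DESeq2 gave *Slc38a4* no p. The causes of these shifts were not tested. Libraries that share a replicate number did not deviate together (correlations of -0.0032, 0.108 and -0.0996), so the number was not read as a pairing. With the replicate block 0 imprinted genes were called, but so were 0 of all genes, so that count does not show whether the block matters.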
